A study of Drosophila melanogaster with 2 samples.

Results

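The regions described here are the weak promoter candidates of a chromatin immunoprecipitation experiment on Tailup (tup) in Drosophila melanogaster embryos. They were chosen by the measured peak signal: each is a candidate of the pooled dm6 peak list that overlaps no peak of the optimal list, with its summit within 500 bp of an annotated transcript start. The rule found 5760 weak promoter candidates among 30000 pooled candidates. A further 21634 candidates also overlap no optimal peak but have their summit farther from any start, and 1237 optimal peaks have their summit within 500 bp of a start. All chromatin came from 1 group, whole embryos of mixed sex aged 0 to 24 h from a transgenic line that carries tup with GFP fused to its C-terminal end. It was precipitated with an antibody against GFP in 2 biological replicates, so no value compares treatments, and tissues and stages are averaged over the whole embryo. Sonicated fragments ran from 200 to 800 bp.

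Tailup is the fly member of the Islet branch of LIM-homeodomain proteins, transcription factors that pair a DNA-binding homeodomain with LIM domains that bind partner proteins. In fly embryos it is known for roles in motor neuron identity, the amnioserosa, germ band retraction and the heart. Promoters are the stretches around transcript starts where general transcription factors and RNA polymerase assemble, and neighbouring fly genes are often transcribed away from a shared promoter on opposite strands. A pooled candidate list of this kind is kept permissive on purpose and holds background regions beside peaks, so a weaker entry may be either.

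The windows below show the DNA under weak promoter candidates whose rank was high in both replicate lists. They are the 8 candidates with the best worse rank over the 2 replicate lists among those whose window may be shown here, cut to 50 bp either side of the summit, plus strand of dm6 as RefSeq gives it. Capitals mark CGATA on either strand, the core bound by the boundary protein BEAF and contained in the DNA replication-related element TATCGATA, which the factor DREF binds.
Ubc6 (chr3R:4952753-4952853): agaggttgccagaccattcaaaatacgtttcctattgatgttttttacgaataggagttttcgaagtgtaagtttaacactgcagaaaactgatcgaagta
Rab40 (chrX:12463129-12463229): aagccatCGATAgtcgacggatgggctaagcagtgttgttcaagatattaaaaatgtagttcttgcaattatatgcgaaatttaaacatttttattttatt
CG4199 (chrX:2070785-2070885): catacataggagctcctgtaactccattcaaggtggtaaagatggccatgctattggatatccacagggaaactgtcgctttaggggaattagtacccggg
eEF2 (chr2L:21682141-21682241): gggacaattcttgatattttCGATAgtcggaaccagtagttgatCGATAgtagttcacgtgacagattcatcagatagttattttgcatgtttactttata
SamDC (chr2L:10339382-10339482): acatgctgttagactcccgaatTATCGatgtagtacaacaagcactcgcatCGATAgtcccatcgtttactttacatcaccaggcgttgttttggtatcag
Pka-C1 (chr2L:9699299-9699399): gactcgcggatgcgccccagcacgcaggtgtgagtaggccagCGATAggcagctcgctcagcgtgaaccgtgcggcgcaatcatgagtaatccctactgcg
CG31957 (chr2L:3872435-3872535): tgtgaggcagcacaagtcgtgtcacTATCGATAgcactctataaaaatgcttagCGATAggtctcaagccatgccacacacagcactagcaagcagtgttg
CG12480 (chrX:14169232-14169332): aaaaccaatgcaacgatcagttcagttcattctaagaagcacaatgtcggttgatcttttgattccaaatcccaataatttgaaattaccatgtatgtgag

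CGATA stood in 5 of the 8 windows shown, at Rab40 (a small GTPase), eEF2 (translation elongation), SamDC (polyamine synthesis), Pka-C1 (the catalytic subunit of protein kinase A) and CG31957. The CG31957 window also held the full TATCGATA. Ubc6, a ubiquitin-conjugating enzyme, CG4199 and CG12480 had no CGATA in these letters. Over all 5760 weak promoter candidates, CGATA was present in 922 windows, or 16% (95% Wilson interval 15.1 to 17.0%), so the windows shown do not stand for the whole set. Among the 100 candidates with the best worse rank, whose median signal was 62.8, it was in 26 (26.0%, interval 18.4 to 35.4%), and among the first 500 by that rank, with a median signal of 53.3, in 21.6%. It was in 14.2% (interval 12 to 16.6%) of the other 868 candidates matched in both replicates, with a median signal of 35.7, and in 15.7% (interval 14.7 to 16.8%) of the 4392 not matched in both, with a median of 26.4. The marking of this motif was chosen after its presence in the windows was seen, so these shares carry no test. In windows of the same length centred on all 23694 annotated starts the share was 21.4%. Optimal promoter peaks, with a median signal of 109, had CGATA in 18.3% (interval 16.2 to 20.5%). Weak promoter candidates at ranks 2242 to 5000 had it in 19.5%. The share was thus not highest in the set of highest signal.

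The signal of the weak promoter candidates, the peak caller's own signal value for each region, ran from 19.9 to 68.7 with a median of 28.8. Weak candidates elsewhere had a median of 25.9, and optimal promoter peaks a median of 109. These values chose the members, so they are a description. The caller's q was under 0.05 for 20 of the 5760 weak promoter candidates and for every optimal peak. Just inside the limit lay Sas-4, a centriole assembly gene, at 68.66, RpS19a, a ribosomal protein gene, at 68.61, and CG12213 at 68.55. Just outside it lay the optimal promoter peaks at alph with 68.69, CG1998 with 68.79 and Inx7, a gap junction gene, with 68.80. All 5760 weak promoter candidates were 384 bp wide.

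The share of candidates that lie at promoters was lower at lower ranks. It was 65.2% for ranks 1 to 560, 57.1% for ranks 561 to 1120, 38.5% for ranks 2242 to 5000 and 25.8% for ranks 5001 to 10000. It reached 16% for ranks 20001 to 25000 and 16.4% for ranks 25001 to 30000 (interval 15.4 to 17.5%). Bases within 500 bp of a start make up 13.3% of the chromosome arms, so the weakest bins stood above that share by a few percentage points. Each replicate list gave the same course, with 35.2% in replicate 1 and 39.3% in replicate 2 for ranks 2242 to 5000, and 15.5% and 16.8% for the last 5000 ranks.

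**Figure D1:**
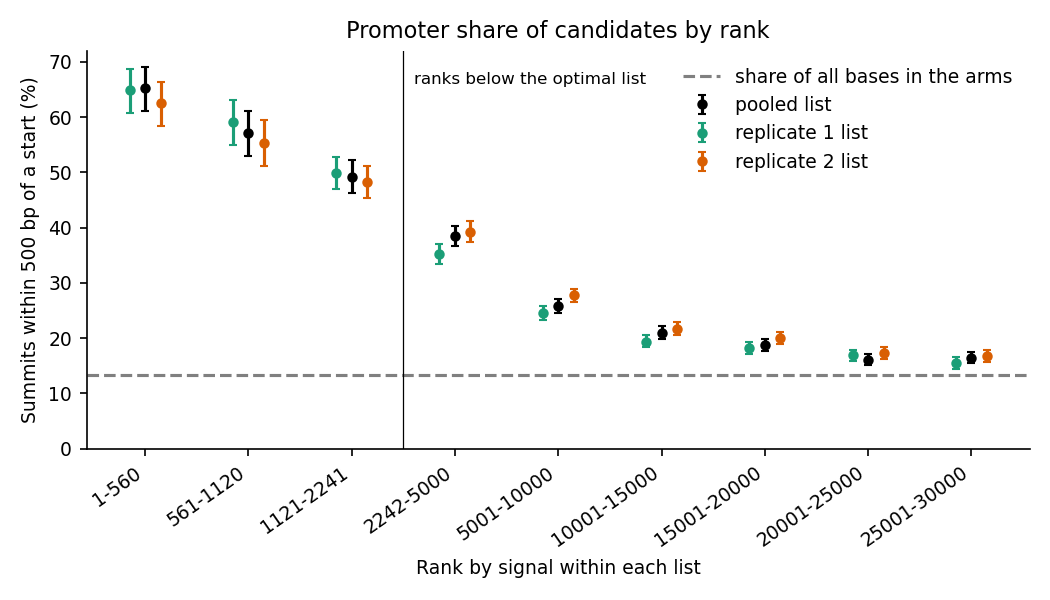
Share of candidates with a summit within 500 bp of a transcript start (%, y axis) by rank of signal (x axis) in the pooled and the 2 replicate lists; bars are 95% Wilson intervals and the dashed line is the share of all bases, 13.3%. The share falls from the strongest ranks through ranks 2242 to 5000 (38.5% in the pooled list) and flattens at about 16% to 16.4% in the last 10000 ranks.

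Where the summit sits relative to the start changed with rank. Among weak promoter candidates of ranks 2242 to 5000, 71.9% of 991 summits lay upstream of their nearest start, with a median at -71 bp. The upstream share was 59.0% of 1237 at ranks 5001 to 10000, 49.3% of 1939 at ranks 10001 to 20000 and 45.7% of 1593 at ranks 20001 to 30000. For the bases within 500 bp of a start, with no candidates at all, the upstream share is 45.3%, which lies inside the interval of the weakest tier (43.3 to 48.2%). Over all weak promoter candidates 54.3% were upstream with a median at -23 bp, against 82.5% and a median at -107 bp for optimal promoter peaks. Summits within 100 bp of a start made up 41.9% of the weak promoter candidates at ranks 2242 to 5000 and 25.9% at ranks 20001 to 30000, against 38.6% of optimal promoter peaks and 24.2% of the bases.

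**Figure D2:**
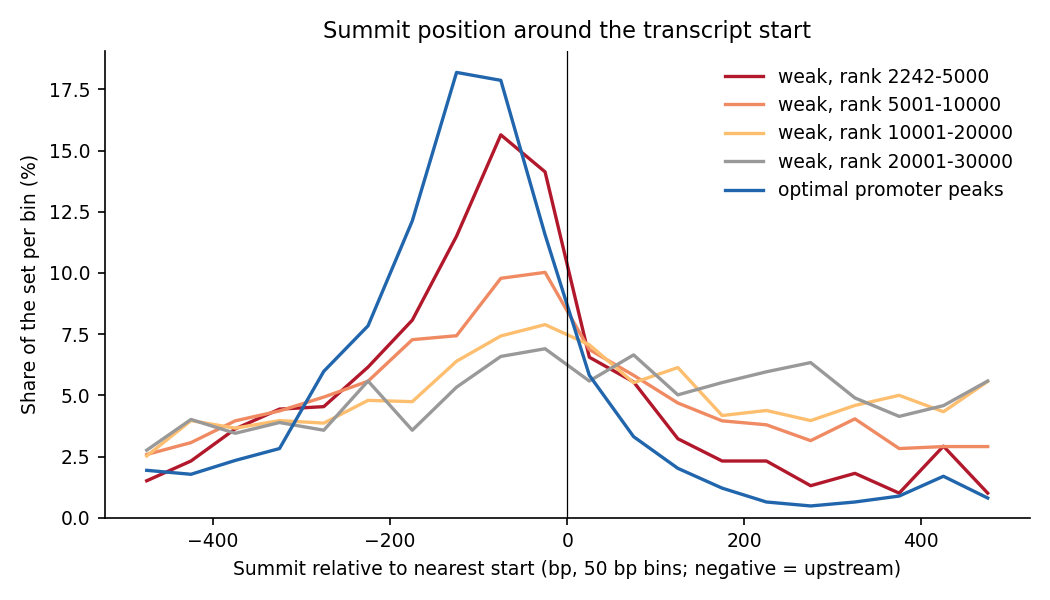
Position of summits relative to the nearest transcript start (bp, 50 bp bins, x axis) as the share of each set per bin (%, y axis), for 4 tiers of weak promoter candidates and for optimal promoter peaks. The hump just upstream of the start is clear for ranks 2242 to 5000, where 71.9% lie upstream, and nearly flat for ranks 20001 to 30000, where 45.7% do.

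The annotation under the summit shifted in the same order. Coding exons held 4.44% of the weak promoter candidates at ranks 2242 to 5000, 13.7% at ranks 5001 to 10000, 19.2% at ranks 10001 to 20000 and 24.2% at ranks 20001 to 30000. Optimal promoter peaks had 5 summits of 1237 in coding exons, or 0.404%. Summits outside annotated genes ran the other way, with 48.2% at ranks 2242 to 5000 and 24.5% at ranks 20001 to 30000, against 54.1% of optimal promoter peaks. The 5′ UTR held 19.6% of weak promoter candidates and 15% of optimal promoter peaks. Median GC in the windows of 50 bp either side of the summit was 38.6%, 42.6%, 43.6% and 45.5% over the 4 tiers, against 33.7% for optimal promoter peaks. Weak candidates elsewhere and all annotated starts both had a median of 43.6%. The part of GC in the differences of this and the next paragraphs was not tested.

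Promoters with starts on both strands were less common under weak promoter candidates than under optimal promoter peaks. Starts on both strands lay within 500 bp of the summit for 984 of 5760 weak promoter candidates (17.1%, interval 16.1 to 18.1%) and for 517 of 1237 optimal promoter peaks (41.8%, interval 39.1 to 44.6%). The odds ratio was 0.287 by a two-sided Fisher's exact test (p = 5.4e-73). Peaks are not replicates, so this p and those below describe the lists and cover counting error only. By tier the share was 30.1%, 20.3%, 14.3% and 9.92%, and the bases within 500 bp of a start give 12.1%. Sas-4 with its neighbour gfzf, Incenp, a subunit of the chromosomal passenger complex, with Br140, and Hph, the prolyl hydroxylase of the hypoxia pathway, with Enoph are examples among the 10 strongest.

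Several core promoter motifs were more frequent in weak promoter candidates than in weak candidates elsewhere. Distance to a start chose which candidates fall in each set, so a difference in promoter motifs was fixed in part by the rule. The p values against candidates elsewhere therefore describe position and not binding. The 15 short motifs were searched on both strands in windows of 50 bp either side of the summit, and 10 of them differed at an adjusted p under 0.05 by Fisher's exact test with Benjamini-Hochberg adjustment, 8 higher and 2 lower at promoters. TATCGATA was in 1.58% of weak promoter candidates and in 0.171% of weak candidates elsewhere (odds ratio 9.37, adjusted p = 8.4e-33 by Fisher's exact test). GGTCACAC, the core of Motif 1 bound by M1BP, was in 1.30% of windows at promoters and 0.153% elsewhere (odds ratio 8.64, adjusted p = 2.6e-26 by the same exact test). GGTATTTT, the core of Motif 6, was in 1.32% at promoters and 0.508% elsewhere. CGATA, which overlaps TATCGATA, was in 16% at promoters and 10.7% elsewhere. The other 4 that were higher differed by less: GATAA, bound by GATA factors, was in 19.8% at promoters and 17.4% elsewhere, TCAGT, the Initiator, in 17.7% at promoters and 15.8% elsewhere, TATAAA in 14.3% at promoters and 13.1% elsewhere, and GAGAG in 12.6% at promoters and 11.5% elsewhere. Those 4 lost the call among candidates above the median signal (adjusted p of 0.15 to 0.23 by the exact test). AGACG, the core of the downstream promoter element, was in 9.43% at promoters and 9.52% elsewhere and did not pass the test (adjusted p = 0.86 by the exact test), nor did the E-boxes CAGCTG and CACGTG (adjusted p = 0.85 and 0.27 by the exact test) or CAGGTA (adjusted p = 0.13 by the exact test). At all annotated starts TATCGATA was in 3.75% and GGTCACAC in 3.88% of windows, more often than in the weak promoter candidates.

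The homeodomain letters went the other way or did not differ. TAATTG was in 8.02% of weak promoter candidates and 8.93% of weak candidates elsewhere, and TAATGG in 4.64% at promoters and 5.36% elsewhere (odds ratios 0.889 and 0.858, both at an adjusted p of 0.045 by Fisher's exact test). Both calls were lost above the median signal (adjusted p = 0.23 and 0.47 by the exact test) and with 25 bp either side of the summit (adjusted p = 0.24 and 0.14 by the exact test). TAATTG also lost the call with starts within 250 bp (adjusted p = 0.073) and with the replicate 1 list alone (adjusted p = 0.11), and TAATGG with starts within 1000 bp (adjusted p = 0.22, all by the exact test). TAATTA was in 6.88% at promoters and 7.14% elsewhere (adjusted p = 0.58 by the exact test), against 3.36% of windows at annotated starts. Against optimal promoter peaks, TAATTA was less frequent, with 6.88% in weak promoter candidates and 10% in optimal promoter peaks (odds ratio 0.663, adjusted p = 0.00077 by the exact test). By tier of rank its share was 8.48%, 7.36%, 6.60% and 5.84%. A match to these letters is a description and not a binding site.

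Against optimal promoter peaks, 5 of the 15 motifs differed, and both that were lower are rich in A and T. TATAAA, the TATA box, was in 14.3% of weak promoter candidates and 24.0% of optimal promoter peaks (odds ratio 0.527, adjusted p = 8.6e-15 by Fisher's exact test). GAGAG, bound by GAGA factor, was in 12.6% of weak promoter candidates and 8.33% of optimal promoter peaks. AGACG was in 9.43% of weak promoter candidates and 5.90% of optimal promoter peaks. CAGGTA, the core of the Zelda motif, was in 2.67% of weak promoter candidates and 1.46% of optimal promoter peaks. Those 3 were higher in weak promoter candidates, whose windows also hold more GC (a median of 43.6%, against 33.7% in optimal promoter peaks). GAGAG and CAGGTA lost the call with 100 bp either side of the summit (adjusted p = 0.17 and 0.051 by the exact test) and with 25 bp (adjusted p = 0.067 and 0.40 by the exact test). The CAGGTA odds ratio was 1.86 in the pooled list and 1.18 in the replicate 2 list alone (adjusted p = 0.73 by the exact test). That call was also lost with starts within 250 bp (adjusted p = 0.059) and with protein-coding starts (adjusted p = 0.064, both by the exact test). TATCGATA was in 1.58% of weak promoter candidates and 2.59% of optimal promoter peaks (adjusted p = 0.057 by the exact test).

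Replicate agreement was tested as a summit of each replicate list within 100 bp. Both replicates had one for 1368 weak promoter candidates (23.8%, interval 22.7 to 24.9%) and for 3843 weak candidates elsewhere (17.8%, interval 17.3 to 18.3%), where 19.0% of all candidates outside the optimal list did. The odds ratio was 1.44 (p = 7.6e-24, two-sided Fisher's exact test), but the signal also differs, with a median of 28.8 at promoters and 25.9 elsewhere. Within ranks 2242 to 5000 the order was turned round, with 59.7% at promoters and 68.5% elsewhere (odds ratio 0.683, p = 6.3e-06 by the exact test). At ranks 5001 to 10000 the share was 38.8% at promoters and 40% elsewhere (odds ratio 0.952, p = 0.48 by the exact test). At ranks 10001 to 20000 it was 13.9% at promoters and 14% elsewhere, and at ranks 20001 to 30000 1.69% at promoters and 1.49% elsewhere. A Mantel-Haenszel odds ratio over the 4 tiers, added after seeing the data, was 0.893 (interval 0.822 to 0.970).

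That order depended on how a match is defined. With any overlap of the intervals as the match, 45.4% of weak promoter candidates and 33.7% of weak candidates elsewhere were matched in both replicates, and the Mantel-Haenszel odds ratio over tiers was 1.19 (interval 1.11 to 1.27). At ranks 2242 to 5000 the overlap shares were 84.6% at promoters and 87.1% elsewhere (odds ratio 0.813, p = 0.072 by Fisher's exact test), and at ranks 20001 to 30000 they were 16.6% at promoters and 12.2% elsewhere (odds ratio 1.42, p = 4.8e-06 by the exact test). A missing summit match is therefore not a missing region. Of the weak promoter candidates, 803 had no replicate summit within 100 bp, while 307 overlapped no candidate of either replicate. Neither count was compared with weak candidates elsewhere.

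**Figure D3:**
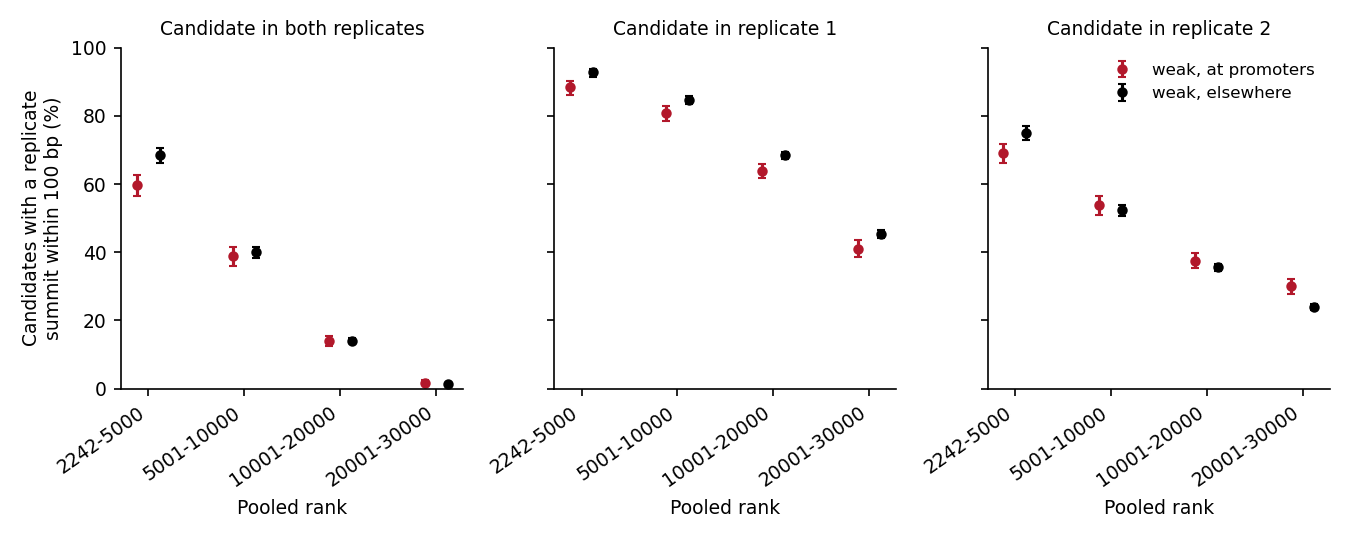
Share of weak candidates with a replicate summit within 100 bp (%, y axis) by tier of pooled rank (x axis), at promoters and elsewhere; bars are 95% Wilson intervals. The share with a summit in both replicates at ranks 2242 to 5000 is 59.7% at promoters and 68.5% elsewhere. In the other tiers that share is close at promoters and elsewhere. The share for replicate 1 is lower at promoters in every tier. The share for replicate 2 is lower at promoters at ranks 2242 to 5000 and higher at ranks 20001 to 30000.

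The 2 replicate lists differed in which weak promoter candidates had a summit within 100 bp, the match used in this paragraph. By overlap of intervals, 45.4% of them were matched in both lists and 5.33% in neither, so the groups below partly reflect where summits were placed. Replicate 1 had a summit within 100 bp for 65.5% of them and replicate 2 for 44.4%. For weak candidates elsewhere the shares were 64.1% and 37.0%, so this imbalance is not particular to promoters. Within the 4 tiers, strongest first, the odds ratio at promoters against elsewhere was 0.595, 0.765, 0.818 and 0.84 for a replicate 1 summit. Every p for replicate 1 was 0.0021 or lower by Fisher's exact test. For a replicate 2 summit the odds ratio was 0.743, 1.06, 1.09 and 1.36 (p = 0.00098, 0.41, 0.11 and 5.8e-07 by the exact test). The other values of this paragraph were not compared with weak candidates elsewhere. Replicate 1 alone matched 2402, with a median GC of 39.6%, and replicate 2 alone matched 1187, with a median GC of 47.5%. Summits upstream of the start made up 56.6% of the candidates matched in replicate 1 alone and 46.6% of those matched in replicate 2 alone. Among the strongest candidates of a replicate list, as many as the optimal list holds, stood 156 weak promoter candidates from replicate 1 and 205 from replicate 2. The median GC was 30.7% in those 156 and 43.6% in those 205, and CGATA was in 13.5% and 29.8% of their windows. Ubc6 alone was among the strongest of both lists, at rank 2019 in replicate 1 and rank 1116 in replicate 2. Read totals are not given in the files, so the depth behind these differences is unknown.

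**Figure D4:**
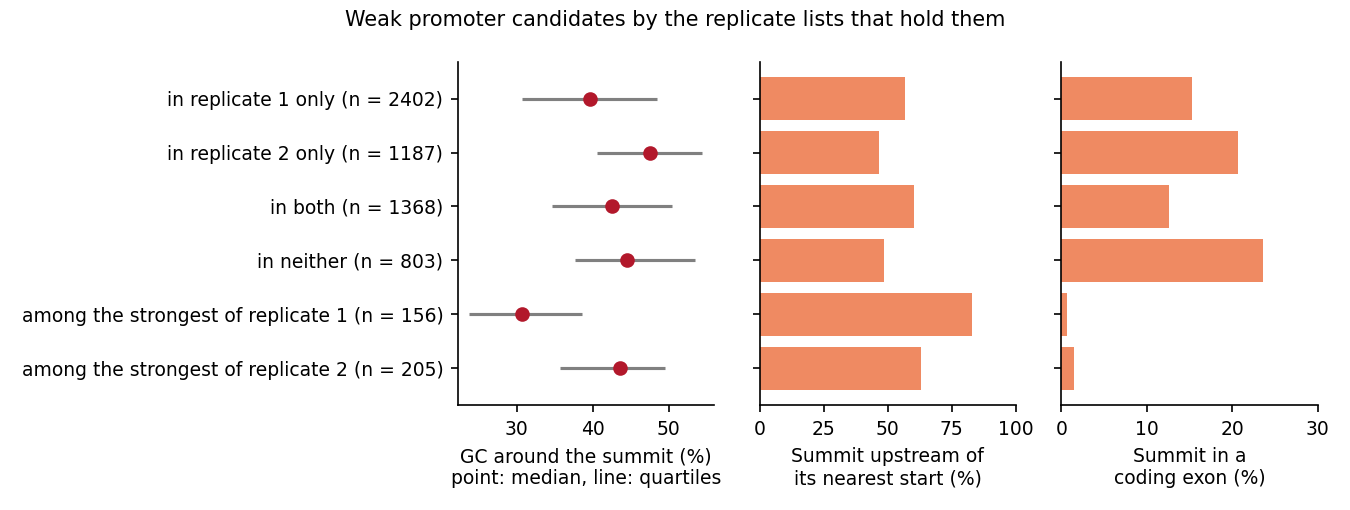
Weak promoter candidates grouped by the replicate lists with a summit within 100 bp, and those among the strongest of each replicate list, as many as the optimal list holds: GC around the summit (points are medians, lines are quartiles), share upstream of the start (%) and share in a coding exon (%). Candidates matched in replicate 1 only have a median GC of 39.6%, and those matched in replicate 2 only 47.5%.

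Several of the 10 strongest weak promoter candidates were unequal between replicates. Here and below, a candidate found in 1 replicate only has no summit of the other list within 100 bp, although an interval of that list may overlap it. Sas-4 had a pooled signal of 68.7, with 56.9 at rank 1496 in replicate 1 and 10.5 at rank 16580 in replicate 2. Sys1, a Golgi protein gene, had 62.3 at rank 1271 in replicate 1 and 7.94 at rank 29177 in replicate 2. CG7878 had 65.4 at rank 1167 in replicate 1 and no summit within 100 bp in replicate 2. RpS19a went the other way, with no summit within 100 bp in replicate 1 and 42.2 at rank 1051 in replicate 2. SamDC was more even, with 53.5 at rank 1690 in replicate 1 and 23.6 at rank 2850 in replicate 2. Iml1, a subunit of the GATOR1 complex, had 43.8 at rank 2535 in replicate 1 and 20.7 at rank 3660 in replicate 2.

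By the worse of the 2 replicate ranks, Ubc6 came before all other weak promoter candidates. It had a pooled signal of 68.1 at -121 bp, with 49.0 in replicate 1 and 40.9 in replicate 2. Rab40 had 65.1, with 47.2 at rank 2190 and 25.6 at rank 2463. eEF2 had 64.6 at -27 bp, with 43.3 at rank 2589 and 24.0 at rank 2770. At Ubc6, Rab40 and eEF2 the summit lay upstream of the start, but at nxf4, with a worse rank of 2627, it lay 2 bp downstream. Pka-C1 had 62.4 at -52 bp, with 41.1 at rank 2876 and 27.9 at rank 2116, beside hoip on the opposite strand. The gene stau, whose double-stranded RNA-binding protein localizes messages, had 65.5 at -54 bp, with 40.6 at rank 2945 and 28.6 at rank 2026. At the weak end with both replicates still matched, ghi had a pooled signal of 20.2 at rank 29186 and MED8, a Mediator subunit gene, 20.5 at rank 28105, the second in a coding exon.

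The promoter of tup itself carried a weak candidate. Its summit lay at -256 bp, outside annotated genes on chromosome arm 2L (dm6, 18881325 to 18881708), with a pooled signal of 38 at rank 6757. Replicate 1 had 32.9 at rank 4706 and replicate 2 had 14.7 at rank 7453, so both lists held it. The median rank of matched weak promoter candidates was 10249.5 in replicate 1 and 8455 in replicate 2. Within 50 kb of tup lay 6 other weak promoter candidates. Ugt36D1, a UDP-glycosyltransferase gene, had the highest signal, 63.8 at rank 2528, with 31.3 at rank 1737 in replicate 2 and no summit within 100 bp in replicate 1, although an interval of that list overlaps it. The others were mRpL13 with 31.4, lncRNA:CR44739 with 26.2, CG42502 with 25.9, ScpX with 23.6 and mir-4946 with 20.1.

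Over all annotated genes, 5711 of 18277 had a weak promoter candidate within 500 bp of a start, which is 31.2%. Of these, 334 also had an optimal peak at a start, and 5377 (29.4%) had only the weak candidate. Of the candidates, 79.6% were near exactly 1 gene. Protein-coding genes had 34.0%, ncRNA genes 24.4%, tRNA genes 24.1%, snoRNA genes 16.4% and pseudogenes 8.48%. The rRNA genes had 0 of 99, which allows a share of up to 3.03%, and no histone gene of the replication-dependent list had one, which allows up to 2.70%. Both are repeated genes, and how reads with several positions were handled is not given in the sources used here.

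Regulators of the nervous system, heart and signalling were among the gene lists with the highest shares. Weak promoter candidates stood at 15 of 24 EGFR, Ras and MAP kinase genes (62.5%, interval 42.7 to 78.8%), against 31.2% of all genes. They stood at 19 of 31 axon guidance genes (61.3%, interval 43.8 to 76.3%). Motor neuron transcription factor genes had them at 11 of 18 (61.1%, interval 38.6 to 79.7%). That list had 0 optimal promoter peaks, which allows a share of up to 16.7%. Amnioserosa and dorsal ectoderm genes had 16 of 32 (interval 33.6 to 66.4%). Heart and dorsal mesoderm regulators had 9 of 18 (interval 29.0 to 71.0%). LIM-homeodomain genes and cofactors had 5 of 10 (interval 23.7 to 76.3%), with 0 optimal peaks. The intervals of the heart and LIM lists include the 31.2% of all genes. Genes of these 6 lists also have more promoters, from 1.28 per gene for the heart list to 1.8 for the LIM list, against 1.18 for all genes. Counted per promoter, the share was 50% for the EGFR list, 48.8% for axon guidance and 55.6% for motor neuron factors, against 29.2% over all genes. It was 47.8% for heart regulators, 39.3% for amnioserosa genes and 38.9% for the LIM list. Of other nervous system lists, neuroblast and neurogenic genes had 33.3% per promoter, voltage-gated ion channels 25% and pan-neuronal genes 20.5%.

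The values of these genes were modest and uneven. In the EGFR list, pnt, an ETS factor that acts at the end of the pathway, had a pooled signal of 57.8, with 21.9 at rank 13199 in replicate 1 and 34.8 at rank 1474 in replicate 2. S (Star), needed to traffic the EGFR ligand, had 57.5, with 20.9 at rank 14804 and 41.4 at rank 1088. Both were therefore far stronger by rank in replicate 2. The scaffold gene cnk had 57.2, with 25.2 at rank 9258 and 23.3 at rank 2924.

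Among axon guidance genes, PlexA, a semaphorin receptor gene on chromosome 4, had 66.4, with 45.5 at rank 2342 in replicate 1 and 19.3 at rank 4214 in replicate 2. Nrg, a cell adhesion gene, had 55.6, with 55.8 at rank 1558 in replicate 1 and no summit within 100 bp in replicate 2. A weaker candidate at Nrg (pooled signal 29.3) had a summit of both lists within 100 bp. The leucine-rich repeat gene trn had 54.9, with 15.4 at rank 29218 in replicate 1 and 41.5 at rank 1079 in replicate 2. With each replicate list taken alone, 38.7% of axon guidance genes had a weak candidate in replicate 1 and 64.5% in replicate 2. Over all genes those shares were 30.6% and 32.3%. Each list used alone drops its own strongest candidates from the weak set, as many as the optimal list holds. Here and below, such shares therefore do not compare signal between replicates.

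The strongest candidates of the motor neuron and heart genes named here had pooled signals between 38.4 and 57.3. The zinc finger gene eg had 57.3, with 45.1 at rank 2384 in replicate 1 only. The gene vnd, which patterns the ventral neuroectoderm, had 38.4, with 40.8 at rank 2910 in replicate 1 only. A weaker candidate at vnd (23.6) had a replicate 2 summit within 100 bp, and those at eg (23.8 and 20.5) had no replicate summit. Lim3, a LIM-homeodomain partner of tup in motor neurons, shared a candidate of 48.1 with lncRNA:CR44905, with 29.6 at rank 6074 and 18.8 at rank 4453. Mef2, the muscle differentiation factor, had 50.1 at -25 bp, with 23.6 at rank 10984 and 18.7 at rank 4456. The GATA factor gene pnr had 49.2 with no replicate summit within 100 bp, and the homeobox gene lbl had 45.9, with 29.1 and 15.9. A weaker candidate at pnr (30.1) had a replicate 2 summit. By single replicate lists, motor neuron factors had 44.4% in replicate 1 and 77.8% in replicate 2, and heart regulators 44.4% and 72.2%. All genes had 30.6% in replicate 1 and 32.3% in replicate 2. Neuroblast and neurogenic genes, with 41.4% in the pooled list, had 31.0% and 62.1%, and gap and pair-rule genes, with 33.3%, had 16.7% and 50%. Hox genes ran the other way, with 30% of 10 in the pooled list, 60% in replicate 1 and 40% in replicate 2.

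Housekeeping lists had both weak and optimal promoter peaks, in different proportions. Over all genes, 31.2% had a weak promoter candidate and 9.62% an optimal promoter peak. Cytosolic ribosomal protein genes had weak promoter candidates at 32 of 86 (37.2%, interval 27.7 to 47.8%), near the share of all genes. Optimal promoter peaks stood at 36 of 86 (41.9%). A weak candidate overlaps no optimal peak, and of the 1758 genes with an optimal peak 334 had both. The weak share alone therefore does not place a list with many optimal peaks. Neither kind stood at 22.1% of cytosolic ribosomal protein genes, against 61.0% of all genes. For translation initiation factors and complex I that share was 52.3% and 50%. Mitochondrial ribosomal protein genes had weak promoter candidates at 33 of 73 (45.2%) and optimal promoter peaks at 13. Aminoacyl-tRNA synthetase genes had weak promoter candidates at 15 of 33 and optimal promoter peaks at 7, and proteasome genes had 13 weak and 2 optimal of 32. Translation initiation factor genes had weak promoter candidates at 15 of 44 (34.1%) and optimal promoter peaks at 7, and genes of respiratory complex I had weak candidates at 9 of 34 (26.5%) and optimal peaks at 8, both near the share of all genes for weak candidates. RpL30, a ribosomal protein gene, had 64.2, with 38.3 at rank 3317 in replicate 1 and 29.9 at rank 1886 in replicate 2. Rpn8, a regulatory subunit of the proteasome, had 60.7.

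Chromatin genes held some of the strongest members. Polycomb and trithorax group genes had weak promoter candidates at 13 of 29 (44.8%, interval 28.4 to 62.5%), against 31.2% of all genes. They had optimal promoter peaks at 6 of 29 (20.7%), against 9.62% of all genes. The Polycomb gene ph-d had 67.8, with 57.8 at rank 1449 in replicate 1 only. Its weaker candidate (28.0) had a replicate 2 summit within 100 bp. Psc had 65.9, with 24.2 at rank 10254 in replicate 1 and 42.2 at rank 1052 in replicate 2. Su(z)12, a subunit of the PRC2 methyltransferase, had 64.9, with 41.9 at rank 1065 in replicate 2 only. CTCF, an insulator protein gene, had 57.5, with 24.6 at rank 2672 in replicate 2 only. A weaker candidate at CTCF (25.4) had a replicate 1 summit within 100 bp.

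The snRNA genes, a list that includes spliceosomal RNAs and the 7SK RNAs, had weak promoter candidates at 13 of 32 genes (40.6%, interval 25.5 to 57.7%). That interval includes the 31.2% of all genes. An optimal peak stood at 1 of 32, or 3.12%, against 9.62% of all genes. Of the 13 candidates nearest to snRNA starts, 11 had a replicate 2 summit within 100 bp and 8 a replicate 1 summit. snRNA:7SKa, the RNA that holds the elongation factor P-TEFb inactive, had 67.9, with 31.2 at rank 1749 in replicate 2. snRNA:U2:34ABb had 64.3, with 40.5 at rank 1134, and snRNA:U1:21D 62.7, with 33.2 at rank 1569, both also in replicate 2. In replicate 1 those 3 candidates had no summit within 100 bp but overlapped an interval. A further, weaker candidate at snRNA:7SKa (pooled signal 24.5) had a replicate 1 summit at rank 4045, and one at snRNA:U1:21D (33.2) had one at rank 4342. Several snRNA genes have near-identical copies, so their values are uncertain. With replicate 2 alone the share was 25%, against 40.6% with replicate 1 alone. A list used alone leaves its own strongest candidates out of the weak set, as many as the optimal list holds. The replicate 2 summits at ranks 1749, 1134 and 1569 are among those left out. The shares of 25% and 40.6% therefore do not compare signal between replicates.

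Genes of sensory receptors, cuticle and reproductive tissues had low shares. Odorant and gustatory receptor genes had weak promoter candidates at 17 of 120 (14.2%), ionotropic receptor genes at 8 of 66 (12.1%), accessory gland and testis protein genes at 9 of 68 (13.2%) and cuticle protein genes at 20 of 99 (20.2%), against 31.2% of all genes. Cuticle, odorant and gustatory, and ionotropic receptor genes had 0 optimal promoter peaks. The highest pooled signal was 41.8 at Cpr73D, shared with Ogdh, for the cuticle list and 44.6 at Or49a for the odorant and gustatory receptors. For the ionotropic receptors it was 54.7 at Ir60e, shared with CG13585, and for the accessory gland and testis list 52.7 at Mst85C, shared with Rel and Nmdmc. Ionotropic receptors had 12.1% in replicate 1 and 6.06% in replicate 2 alone, and cuticle genes 13.1% and 19.2%. All genes had 30.6% in replicate 1 alone and 32.3% in replicate 2 alone. In the whole collection of 33 lists, 19 lay above the share of all genes.

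**Figure D5:**
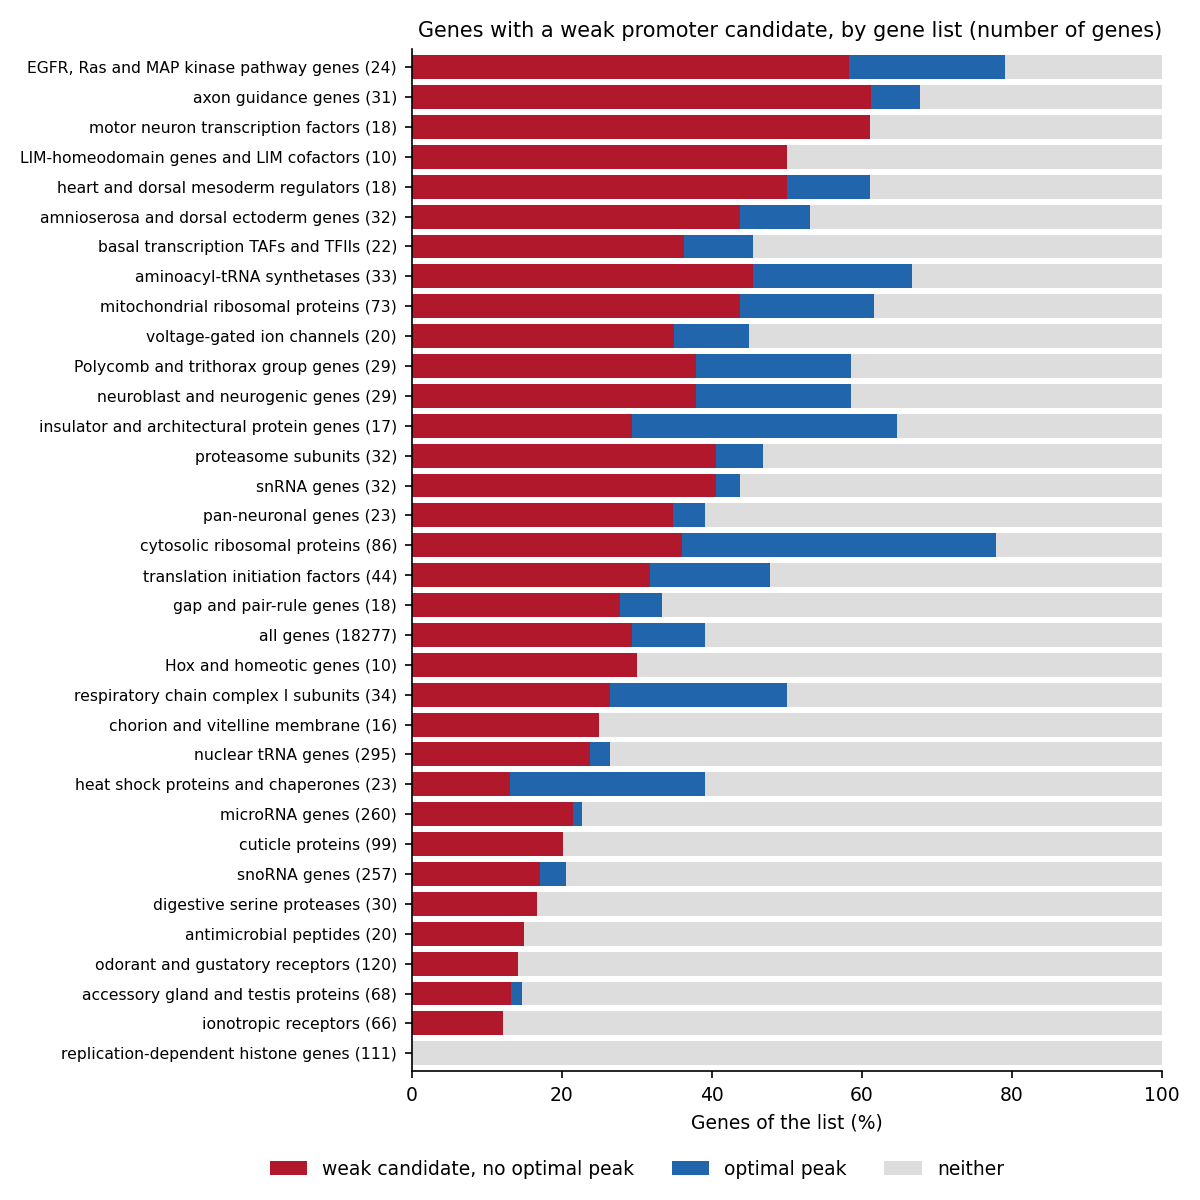
Share of genes (%, x axis) in 33 gene lists and in all genes whose starts have a weak promoter candidate and no optimal peak, an optimal peak, or neither, ordered by the share with a weak candidate. Motor neuron factors have weak candidates at 61.1% of genes and no optimal peak, and histone genes have neither.

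Some long genes collected many weak candidates. Svil, an actin-bundling protein gene of the villin family with 16 annotated starts, had 10, with pooled signals from 20.1 to 63.5. Moe, which links actin to the membrane, had 8 at 8 starts, with signals from 20.7 to 65.4 and no optimal peak at a start. The 3 strongest at Moe, 65.4, 62.6 and 58.9, were higher in replicate 1 (50.8, 48.3 and 45.5) than in replicate 2 (13.7, 15.7 and 13.6). Pde8, a cyclic nucleotide phosphodiesterase gene, had 7. Of all weak promoter candidates, 996 (17.3%) had another within 500 bp of their summit. Whether such neighbours lie at the same start was not tested.

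Weak promoter candidates were found on every arm but the Y, with 32.7 per 100 promoters over all arms. The density was 35.6 per 100 promoters on 3R, 34.3 on 3L, 32.3 on 2R, 31.3 on 2L, 30.2 on X and 25.7 on chromosome 4. The Y had none at 112 promoters. Chromosome 4, with 36 candidates at 140 promoters, differed between the lists of single replicates, with 40 per 100 promoters in replicate 1 and 12.1 in replicate 2. Over all arms those lists gave 31.1 and 34.4. Each list leaves out its own strongest candidates, so these densities do not compare signal between replicates. An optimal summit lay within 1 kb of 4.65% of weak promoter candidates (interval 4.14 to 5.23%) and of 2.89% of weak candidates elsewhere (interval 2.67 to 3.12%). Within 10 kb the share was 42.1% for weak promoter candidates and 34.7% for weak candidates elsewhere. The median distance was 13539 bp for weak promoter candidates and 18069 bp for weak candidates elsewhere.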

How the data were processed

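Peak lists on dm6 were used as deposited, per the labels' assembly field: a pooled list, an optimal list and 1 list per biological replicate, each replicate list and the pooled list with 30000 candidates. The signal column and the −log10 q column were made by the authors' peak caller, and the summit offset was read from the deposited lists. No source used here names the aligner, the peak caller or the read totals, and a control experiment named in the labels was not analysed here. Lists on another build were not used.

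Starts came from the Ensembl BDGP6.54 annotation, release 115, without 5889 transposable element records. Sequences came from RefSeq's dm6 genome. A candidate was matched to a replicate when a summit lay within 100 bp. Where a single replicate list was used alone, its own 2241 candidates of highest signal took the place of the optimal list. Motif windows held 50 bp either side of the summit. Shares carry 95% Wilson intervals, which cover counting error only. Fisher's exact tests were two-sided, with Benjamini-Hochberg adjustment over the 15 motifs and a threshold of 0.05. Scripts used Python 3.11.15, NumPy 2.4.6, pandas 2.3.3, SciPy 1.17.1, statsmodels 0.14.6 and matplotlib 3.10.9, and the distance, overlap and motif functions were checked on simulated data. Floors for a count of 0 are 3 counts of the total.

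The members, gene lists and tests were chosen with earlier results of these data known. Named members were the 10 of highest signal, the 10 with the best worse replicate rank, the 5 of lowest signal matched in both replicates, all within 50 kb of tup, the genes with most members and up to 3 genes per list. Of the gene names on the lists, 26 were not in the annotation. Some named members that this rule picks are not reported here.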

Additional observations from a re-analysis of the deposited data

How the results depend on the processing

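No paired analysis was possible because there is 1 group and no comparison between groups of samples. Most values moved with the definition of a promoter. With starts within 250 bp, the set held 3600 candidates (13.1% of those outside the optimal list, 58.3% upstream, 3.92% within 1 kb of an optimal summit, 20.3% of genes, 20.4 per 100 promoters). With 1000 bp it held 9401 (34.3%, 48.1% upstream, 5.82%, 47.4% of genes, 53.3 per 100 promoters), and 8 motifs differed from optimal promoter peaks. With protein-coding starts alone the share was 18.5%, 55.7% upstream, 34.0% of genes and 34.1 per 100 promoters. Above the median signal, 2880 candidates gave 26.9%, 61.8% upstream, 17.8% of genes, 16.3 per 100 promoters and 4 motifs that differed from candidates elsewhere. There the odds ratio for support in both replicates was 1.06 (p = 0.16, Fisher's exact test). It reversed to 0.893 over tiers of rank. With 25 bp either side, 3 motifs differed from optimal promoter peaks and 6 from candidates elsewhere. With single replicate lists the promoter share ran from 20.05 to 22.1%, the upstream share from 47.5 to 56.1%, genes from 30.6 to 32.3% and density from 31.1 to 34.4 per 100 promoters. The low share of promoters with starts on both strands kept its direction and its call in all 6 alternatives (odds ratios 0.262 to 0.404). Unknown depth limits any statement that a weak region is absent from a replicate.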
